A study of Musculus with 2 samples.

Results

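Ly6 genes encode small surface proteins, and 5 of the 32285 genes in the files were followed here: Ly6c1, Ly6c2, Ly6a, Ly6e and Ly6d. They were chosen by name with earlier results of the same matrices known, among them their levels by cell type and the higher Ly6c2 and Ly6d in LPCAT3-AKO, so these values describe the genes and support nothing further. The libraries came from the stromal vascular fraction (SVF, the non-adipocyte cells released by collagenase) of subcutaneous white adipose tissue (sWAT) of mice, profiled by droplet single-cell RNA-seq. The control group has the genotype WT and the LPCAT3-AKO group the genotype LPCAT3 knockout, with 1 library per group. The sample labels give an age of 5 weeks and the series text 2 months, on a diet abbreviated CD, for both groups. Neither the Cre driver nor the number of mice per library is stated in the labels. With 1 library per group no difference below has a replicate check, and every interval is a 95% exact interval that covers counting error only.

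Ly6 proteins fold into a single small domain held by disulphide bridges, and most are tied to the outer membrane by a glycosylphosphatidylinositol (GPI) lipid anchor. The antigen called Ly6C on blood cells separates classical inflammatory monocytes, which are high for it, from the patrolling kind, which are low, and in mice it is encoded by the neighbouring, nearly identical genes Ly6c1 and Ly6c2. Monocytes enter tissue through Ccr2 and lose Ly6C as they turn into macrophages. Ly6a encodes Sca-1, the surface marker used to sort stromal progenitors of fat, Ly6e is an interferon-inducible member found on many cell types, and Ly6d marks B-lineage and some epithelial cells. Several of these genes respond to interferon in blood cells.

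Of 13831 control and 12806 LPCAT3-AKO barcodes, 11191 and 10576 were kept, with medians of 8078 and 8599 UMIs (unique molecular identifiers, counts of captured transcripts) per cell. The libraries shared 58 barcodes, of which 36 were kept in both. Cells were gated by how many markers of a fixed panel they held, and no Ly6 gene followed here was in a panel. A level is given as CPM, the UMIs of a gene per 1000000 UMIs of all genes in the gate, and a ratio is LPCAT3-AKO over control. A gene is called higher or lower where it had 20 CPM or more in the library with more of it, a ratio of at least 1.5 either way and an interval that leaves out 1. Lpcat3 itself had 26.7 CPM over all kept control cells and 30.6 CPM over LPCAT3-AKO cells. The SVF holds few adipocytes (Adipoq, the adipocyte hormone adiponectin, had 1.09 and 0.843 CPM) and the deleted exons are not given here, so these UMIs do not check the genotype label.

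The 5 genes marked different cells. Among the 11 gates with 20 or more cells in each library, Ly6c1 was highest in vascular endothelial cells and then fibroblasts, Ly6c2 in monocytes, Ly6a in fibroblasts and Ly6d in epithelial cells, while Ly6e was above 100 CPM in all 11. Over all kept cells 2 of the 5, Ly6c2 and Ly6d, were higher in the LPCAT3-AKO library and none was lower. Of the 6582 genes tested in that comparison 1.69% were called higher and 0.684% lower. Ly6c1, Ly6a and Ly6e had ratios of 0.985, 1.07 and 1.12.

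**Figure D1:**
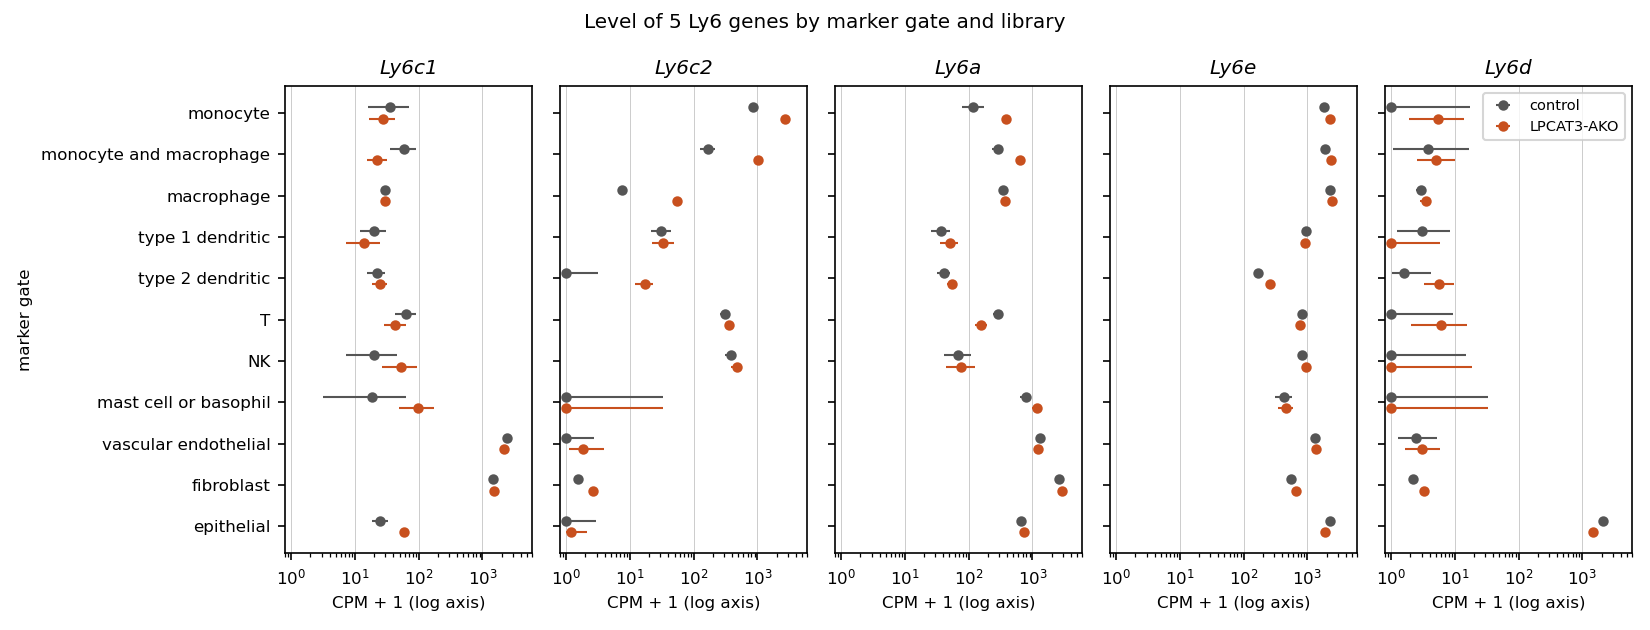
Level of each Ly6 gene (horizontal log axis, CPM + 1) in 11 marker gates (rows) in the control and LPCAT3-AKO libraries, 1 point per library with its 95% counting interval. The libraries lie apart for Ly6c2 in the monocyte, monocyte and macrophage and macrophage gates, and nearly coincide for Ly6c1 in fibroblasts, at 1448 and 1494 CPM.

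Ly6c2, the monocyte Ly6C gene, was carried by 980 UMIs in the control library and 5747 in the LPCAT3-AKO library, or 10.6 and 57.0 CPM. The ratio was 5.39 (5.03 to 5.77), and 3 of the 6582 tested genes had a larger one on the log2 scale. Monocytes were gated as cells with UMIs of both Plac8 and Ccr2, at least 5 of 8 monocyte markers (among them Plac8, Ccr2, Chil3, Ms4a4c, Ifitm6, Hp and Vcan) and under 7 of 12 macrophage markers. They made up 38 control cells (0.340% of kept cells) and 99 LPCAT3-AKO cells (0.936%), a ratio of shares of 2.76 (1.88 to 4.12). Monocytes were thus a larger share of the LPCAT3-AKO library, and the question is whether their Ly6c2 level moved as well.

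It was higher within them. The gated monocytes held 195 Ly6c2 UMIs in the control, a level of 843 CPM, and 1821 UMIs in the LPCAT3-AKO library, a level of 2682 CPM, with a ratio of 3.18 (2.74 to 3.71). Depth per cell was alike, with medians of 5811 and 6156 UMIs. Most monocytes had the gene in both libraries: 76.3% of control cells (59.8 to 88.6%, Clopper-Pearson) and 79.8% of LPCAT3-AKO cells (70.5 to 87.2%). What differed was how much each held. Per 10000 UMIs of a cell the lowest value was 0, the median 2.88 and the highest 125 in the control, against a lowest of 0, a median of 16.5 and a highest of 147 in the LPCAT3-AKO library. After every cell was thinned to 2000 UMIs, 15.8% of control monocytes (6.02 to 31.3%) and 54.5% of LPCAT3-AKO monocytes (44.2 to 64.6%) held 3 or more Ly6c2 UMIs. The cells' values overlap over nearly the whole range, and a single control cell with 54 UMIs held 27.7% of that library's monocyte Ly6c2; without the 5% of monocytes with the most Ly6c2 in each library the log2 ratio went from 1.67 to 2.12.

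**Figure D2:**
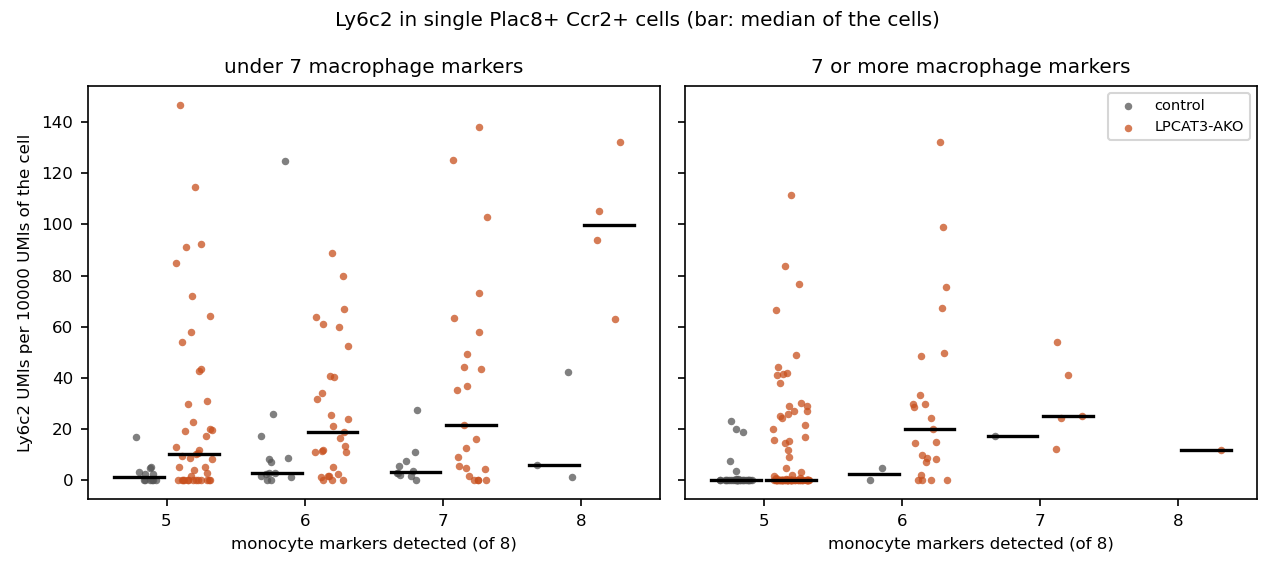
Ly6c2 UMIs per 10000 UMIs (vertical axis) in single Plac8+ Ccr2+ cells, 1 point per cell, by the number of monocyte markers detected (horizontal axis), with under 7 macrophage markers on the left (38 control and 99 LPCAT3-AKO cells) and 7 or more on the right (36 and 111 cells). Black bars are medians of the cells, and on the left the LPCAT3-AKO bar is above the control bar at each marker number.

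The higher level was found at each marker number inside the gate. At 5 monocyte markers, just inside the gate, Ly6c2 had 249 CPM in 12 control cells and 1746 CPM in 43 LPCAT3-AKO cells. At 6 markers it had 1352 and 2473 CPM, and at 7 or 8 markers 927 and 4720 CPM. Cells just outside the gate, with 4 markers, had 81.3 CPM in 29 control and 482 CPM in 50 LPCAT3-AKO cells. At 3 markers the levels were 50.8 and 124 CPM, but at 2 markers 38 control cells held 8 Ly6c2 UMIs (35.3 CPM) and 20 LPCAT3-AKO cells held 0. Levels therefore climbed with the number of monocyte markers in the LPCAT3-AKO library. In the control the highest level was at 6 markers, where a single cell held 54 of the 103 Ly6c2 UMIs. Each control stratum inside the gate had 13 cells or fewer. With the 3 strata given equal weight, an alternative chosen after seeing the data, the levels were 842 and 2979 CPM.

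Most other monocyte genes were not called higher. Plac8, a small cysteine-rich protein abundant in monocytes, had 2586 and 2508 CPM in the gate. Ccr2, the receptor for monocyte chemokines, had 1609 and 1629 CPM, and Ms4a4c, a membrane protein of classical monocytes, 752 and 754 CPM. All of these are gate markers, and every gated cell had UMIs of Plac8 and Ccr2, so their levels depend on the gating. Of the 17 classical monocyte genes outside the gate panel all were measured, 1 was higher (Irf8, a transcription factor, 25.9 and 66.3 CPM) and 2 were lower (Thbs1, thrombospondin, 2158 and 1230 CPM, and F10, coagulation factor X, 216 and 109 CPM). Their median log2 ratio was −0.17, against 0.08 over the 5945 genes tested in the gate, of which 6.46% were called higher and 3.28% lower. Within the panel Chil3, a secreted chitinase-like protein, was higher at 125 and 230 CPM, and Hp (haptoglobin, 450 and 250 CPM) and Vcan (the proteoglycan versican, 381 and 137 CPM) were lower.

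Among the 5 Ly6 genes 2 were higher in the monocyte gate, Ly6c2 and Ly6a, and none was lower, to be read against the 6.46% above. Ly6a had 27 UMIs and 117 CPM in control monocytes and 265 UMIs and 390 CPM in LPCAT3-AKO monocytes, a ratio of 3.34 (2.25 to 5.17); 1 control cell held 10 of the 27 UMIs. Ly6e had 1829 and 2259 CPM, a ratio of 1.23 (1.11 to 1.38). Ly6c1 had 8 and 18 UMIs, or 34.6 and 26.5 CPM, against 28.8 and 28.1 CPM in macrophages.

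Interferon response genes were also higher in this gate. Of 39 measured genes of the list 18 were higher, where 6.46% of all tested genes were, and none was lower, with a median log2 ratio of 0.66 against 0.08 over all tested genes. Ifi27l2a, a gene strongly induced by interferon, had 2469 and 4427 CPM, Irf7, the transcription factor that amplifies interferon production, 169 and 423 CPM, Trim30a, of the tripartite motif family, 208 and 349 CPM, and Oasl2, of the oligoadenylate synthetase family, 147 and 275 CPM. In other gates the list went in different directions. In cells that met both the monocyte and the macrophage gate 2 of 40 were higher and 15 lower (median log2 ratio −0.38, against 0.05 over all tested genes), where 6.04% of genes were higher and 4.87% lower. In macrophages as a whole 10 of 40 were lower and none higher (median −0.24, against 0.04), where 0.667% of genes were lower. Within macrophages it differed by class: in those with UMIs of neither Lyve1 nor Folr2, markers of resident cells, 6 of 36 were higher and none lower (median 0.12, against 0.04), where 3.9% of genes were higher, and in dividing ones 10 of 39 were higher and none lower (median 0.40, against 0.07), where 10.5% were higher. In fibroblasts 5 of 34 were lower and none higher (median −0.30, against −0.0014), where 0.86% of genes were lower. Monocytes with 9 or more interferon genes detected in 2000 UMIs numbered 11 of 38 (control) and 52 of 99 (LPCAT3-AKO). Among those Ly6c2 had 1400 and 3638 CPM, among monocytes with 6 to 8 such genes 1048 and 1707 CPM, and among those with 3 to 5 genes 192 and 2126 CPM. The Ly6c2 level was higher in the LPCAT3-AKO library within each of these 3 bins. In the bin of 0 to 2 genes it was lower, at 291 and 119 CPM with counting intervals that overlap. That bin held only 4 and 5 cells, with 6 and 4 Ly6c2 UMIs. The part of interferon in the Ly6c2 difference was not tested.

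**Figure D3:**
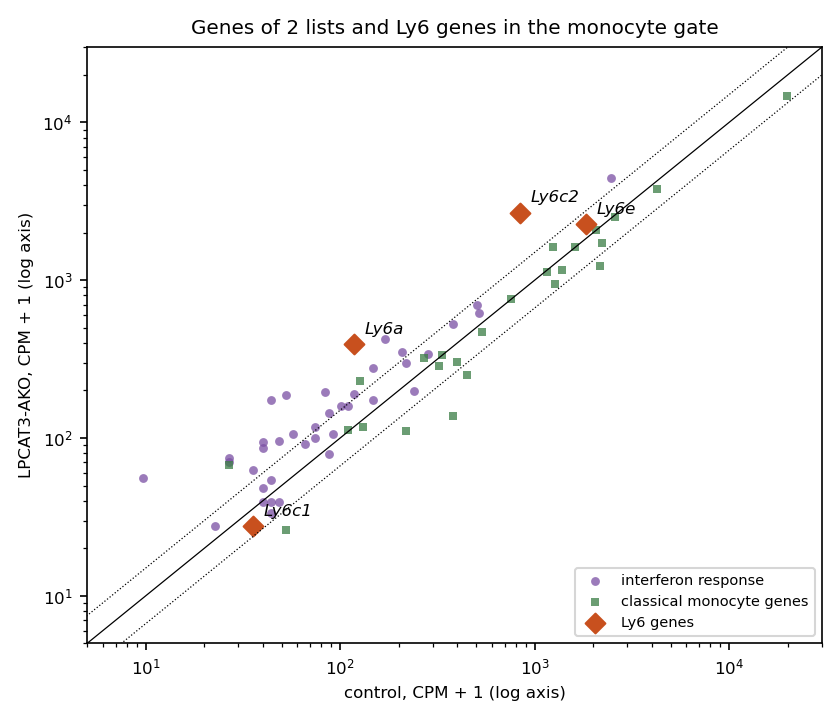
Levels in the monocyte gate in the control (horizontal log axis, CPM + 1) and LPCAT3-AKO library (vertical log axis, CPM + 1), 1 symbol per gene of the interferon response list, the classical monocyte list and 4 Ly6 genes. The solid line marks equal levels and the dotted lines a ratio of 1.5 either way; Ly6c2 (843 and 2682 CPM) and Ly6a (117 and 390 CPM) lie above the upper dotted line, and most classical monocyte genes lie on or below the solid line.

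Other cell types in the gate were checked by their panels. The 10 T cell markers summed to 13 CPM in control and 5.89 CPM in LPCAT3-AKO monocytes, the 10 NK markers to 13 and 10.3 CPM, and the 8 plasmacytoid dendritic markers, of which 2 and 3 were detected, to 147 and 131 CPM. The part of these cells in the Ly6c2 level was not tested. The 12 macrophage markers were all detected and summed to 1579 and 2024 CPM, with a median of 4 and 5 detected per cell. Within strata of macrophage markers the Ly6c2 level was again higher: 325 and 1552 CPM at 0 to 2 markers, 1206 and 2649 CPM at 3 to 4, and 614 and 2906 CPM at 5 to 6. Cells with 3 or more non-classical monocyte markers (13 control and 30 LPCAT3-AKO cells) had 542 and 2173 CPM, and the others 1006 and 2901 CPM. Dividing monocytes, with 3 or more of 8 cell cycle markers, were 0 and 5.

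Cells that met the monocyte and the macrophage gate together, with features of both identities, numbered 36 (control) and 111 (LPCAT3-AKO), a ratio of shares of 3.26 (2.22 to 4.89). Ly6c2 had 165 CPM (58 UMIs) and 1019 CPM (1476 UMIs) in them. In the control 9 of 36 such cells had a Ly6c2 UMI and in the LPCAT3-AKO library 59 of 111. Of the 5 genes Ly6c2 and Ly6a (282 and 635 CPM) were higher and Ly6c1 (57.0 and 21.4 CPM, 20 and 31 UMIs) lower, where 6.04% of 6158 genes tested were higher and 4.87% lower. The makeup of these cells differed between the libraries. The median number of macrophage markers per cell was 11 (control) and 9 (LPCAT3-AKO), the macrophage panel summed to 13877 and 11812 CPM and the monocyte panel to 2727 and 3223 CPM, with all markers of both panels detected. Cells with 6 monocyte markers were 2 and 23, and those with 7 or 8 were 1 and 6. At 5 monocyte markers, in 33 and 82 cells, Ly6c2 had 130 and 631 CPM. The part of the makeup in the difference was not tested beyond this stratum.

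In macrophages Ly6c2 was low in both libraries and higher in LPCAT3-AKO. It had 160 UMIs and 6.37 CPM in 3663 control macrophages, and 1265 UMIs and 54.2 CPM in 2671 LPCAT3-AKO macrophages, a ratio of 8.5 (7.21 to 10.1). None of the 6000 genes tested in macrophages had a larger log2 ratio. Ly6c2 was the only one of the 5 genes called in this gate, where 1.27% of genes were higher and 0.667% lower. Cells with a UMI were 1.42 and 4.83%, at median depths of 6291 and 7866 UMIs, and 0.720 and 3.23% after thinning. In fibroblasts, which should lack the gene, the shares were 0.514 and 1.49% at median depths of 9493 and 9216 UMIs, and 0.149 and 0.310% after thinning.

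Most of the added macrophage UMIs lay in cells that lacked 1 or both of a pair of resident markers. In the 2889 and 1959 macrophages with UMIs of both Lyve1, a hyaluronan receptor, and Folr2, a folate receptor, markers of perivascular resident macrophages, Ly6c2 had 75 and 130 UMIs, or 3.77 and 7.43 CPM. In the 528 and 488 macrophages with exactly 1 of them it had 67 and 702 UMIs, or 20.04 and 183 CPM, a ratio of 9.15 (7.12 to 11.9). In the 246 and 224 macrophages with neither it had 18 and 433 UMIs, or 9.63 and 215 CPM, a ratio of 22.3 (13.9 to 38), and 7 and 33 cells carried it. Ly6c2 and Ly6e were called higher among the latter, where 3.9% of 5743 genes were higher and 2.25% lower. Ly6e had 377 and 681 CPM there. Macrophages with UMIs of both Plac8 and Ccr2 had 21.4 and 160 CPM of Ly6c2, and those without both 1.23 and 5.93 CPM. Among dividing macrophages, 85 and 216 cells, Ly6c2 had 0 and 71 UMIs, at least 8.10-fold higher when the control is set to 3 counts over the gate, with 38 of the 71 UMIs in 1 cell.

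Taking all gates, the whole-library difference in Ly6c2 of 46.4 CPM can be split into what follows from a gate's share of UMIs and what follows from the level in it. Shares of gates accounted for 29.3% and levels within gates for 70.7%. A level here is a mean over a gate, so it rises with more cells carrying the gene as well as with more UMIs per carrying cell. Carriers were 9 of 36 and 59 of 111 cells in the monocyte and macrophage gates together, and a larger share of LPCAT3-AKO macrophages, as given above. The number of carriers and the amount per carrier were not separated in this split. In the monocyte gate 16.1% of the whole difference came from the share and 18.3% from the level, in cells of both the monocyte and macrophage gates 13.5% and 16.7%, and in macrophages −2.58% and 25.9%. The larger number of monocytes and the higher level in them thus weighed about the same in that gate. The share depends on the gate. Cells with UMIs of Plac8 and Ccr2 that met no gate other than the monocyte or macrophage gate numbered 905 (control) and 989 (LPCAT3-AKO). Most of them, 708 and 657, were in the macrophage gate and did not meet the monocyte gate. For the 905 and 989 cells the log2 ratio of shares was 0.21 in place of 1.46, and Ly6c2 had 55.6 and 457 CPM.

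**Figure D4:**
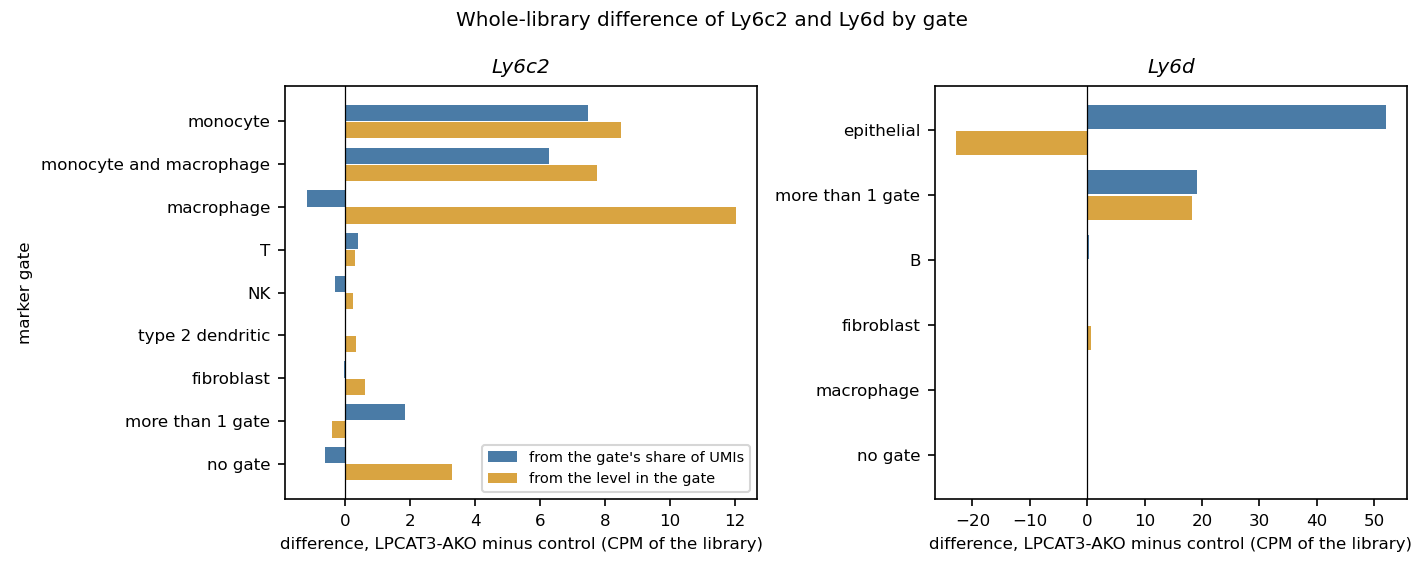
Whole-library difference (LPCAT3-AKO minus control, CPM, horizontal axis) of Ly6c2 and Ly6d by gate (rows), split into the part from the gate's share of UMIs (blue) and the part from the level within the gate (yellow). For Ly6c2 the monocyte gate has bars of 7.47 and 8.49 CPM and the macrophage gate of −1.20 and 12 CPM, and for Ly6d the epithelial gate has 52.0 and −22.8 CPM.

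Lymphocytes carried Ly6c2 in both libraries, with ratios whose intervals include 1. T cells, 113 and 152, had 303 and 361 CPM, a ratio of 1.19 (0.955 to 1.49), and NK cells, 93 and 65, had 377 and 477 CPM, a ratio of 1.26 (0.949 to 1.68). T cells with Cd8a or Cd8b1, the co-receptor of cytotoxic T cells, had 416 and 570 CPM. T cells with Cd4, the helper co-receptor, had 40.1 CPM from 5 UMIs in 3 of 29 cells and 285 CPM from 30 UMIs in 6 of 33 cells, 14 of them in 1 cell. The intervals depend on the gate. With 1 marker more demanded of each, the log2 ratio was 0.58 (0.28 to 0.89) in T cells in place of 0.25, and 0.52 (0.10 to 0.95) in NK cells in place of 0.34, both with intervals above 0.

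Dendritic cells differed by type. Type 1 dendritic cells, which present antigen to cytotoxic T cells, had 30.2 and 32.4 CPM of Ly6c2. Type 2 dendritic cells had 0 UMIs in 207 control cells and 34 UMIs (16.0 CPM) in 217 LPCAT3-AKO cells, at least 9.20-fold higher when the control is set to 3 counts over the gate; the UMIs came from 9 cells, 16 of them from 1. The 8 monocyte markers, of which 6 and 7 were detected, summed to 1370 and 1736 CPM in the type 2 gate. The median number of them per cell was 2 and 3, and their part in the difference was not tested. The few plasmacytoid dendritic cells, producers of interferon, all held the gene: 6 control cells with 1638 CPM and 5 LPCAT3-AKO cells with 2279 CPM. Vascular endothelial cells had 0 and 2 Ly6c2 UMIs, mast cells and basophils none.

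Ly6c1, the other Ly6C gene, was a stromal and vascular gene here. Vascular endothelial cells had 2441 CPM in control cells and 2212 CPM in LPCAT3-AKO cells, a ratio of 0.906 (0.872 to 0.942), and 99.5% of control endothelial cells had a UMI. Fibroblasts had 1448 and 1494 CPM, a ratio of 1.03 (1.02 to 1.04). Neither passed the rule of size, and none of the 5 genes was called in fibroblasts, where 1.34% of 6050 genes were higher and 0.86% lower, or in vascular endothelial cells, where 2.28% of 6570 were higher and 1.52% lower. Below these gates the next in order in the control were T cells at 62.0 CPM and the gate of monocyte and macrophage markers at 57.0 CPM, whose intervals overlap.

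Fibroblast states differed more than libraries did. Interstitial fibroblasts, marked by Dpp4, a membrane peptidase, and Pi16, a secreted peptidase inhibitor, had 1656 and 1906 CPM of Ly6c1, a ratio of 1.15 (1.14 to 1.16). Fibroblasts committed to the fat lineage, marked by Col15a1, a basement membrane collagen, and Icam1, an adhesion molecule, had 385 and 364 CPM. Those high for F3, the coagulation receptor tissue factor, had 1033 and 1132 CPM. The gap between states was present in both libraries. The committed state took 7.18% of kept control cells and 11.6% of kept LPCAT3-AKO cells, and the interstitial state 34.9 and 32.3%.

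Ly6c1 and Ly6c2 are so alike in sequence that counting could assign reads of one to the other, and the split of UMIs between them was compared across gates. Of the UMIs of both genes in fibroblasts, Ly6c2 made up 0.0373% in the control (28 of the UMIs beside 75126 of Ly6c1) and 0.111% in the LPCAT3-AKO library (88 beside 79245). In endothelium the shares were 0 and 0.0373%. In monocytes Ly6c2 was 96.1% of the UMIs of both genes in the control (92.4 to 98.3%) and 99% in the LPCAT3-AKO library (98.5 to 99.4%). Misassigned or ambiguous reads were not tested.

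In the other gates Ly6c1 was called only where UMIs were few. Epithelial cells had 24.1 CPM (46 UMIs) and 58.3 CPM (294 UMIs), a ratio of 2.42 (1.77 to 3.37), with 23 of the 294 in 1 cell. It was the only one of the 5 genes called in epithelial cells, where 7.58% of 6211 genes were higher and 6.3% lower. The 12 fibroblast markers, all detected, summed to 928 and 916 CPM in these cells. In mast cells and basophils Ly6c1 had 2 and 11 UMIs (17.4 and 96.9 CPM), and Ly6c1 and Ly6a were the 2 of 5 called higher there, where 2.17% of 6593 genes were higher and 1.91% lower. The fibroblast markers, of which 11 and all 12 were detected, summed to 1163 and 1930 CPM in the mast cell gate, and their part in these calls was not tested.

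Ly6a, which encodes Sca-1, was highest in fibroblasts at 2615 CPM in control cells and 2880 CPM in LPCAT3-AKO cells, a ratio of 1.10 (1.09 to 1.11). Next came vascular endothelial cells at 1318 and 1242 CPM, mast cells and basophils at 781 and 1189 CPM, and epithelial cells at 664 and 732 CPM. Fibroblasts were first in both libraries. The intervals of the mast cell and epithelial gates overlap in the control (628 to 960 and 628 to 702 CPM), and those of the mast cell and vascular endothelial gates overlap in the LPCAT3-AKO library (997 to 1408 and 1198 to 1287 CPM). In fibroblast states the order was that of Ly6c1: interstitial cells had 2857 and 3414 CPM, a ratio of 1.20 (1.19 to 1.21), F3-high cells 2565 and 2724 CPM, and committed cells 1227 and 1190 CPM. A Ly6a UMI was found in 97.3% of control fibroblasts.

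In immune cells Ly6a went in different directions. Besides the monocytes described above, dividing macrophages had 90.8 and 253 CPM, a ratio of 2.79 (2.26 to 3.47), where 10.5% of 6494 genes were higher and 4.59% lower, and Ly6a, Ly6c2 and Ly6e (828 and 1706 CPM) were the 3 of 5 called higher. Macrophages as a whole had 347 and 376 CPM. Lyve1 and Folr2 macrophages had 409 and 443 CPM and those with neither 77.5 and 114 CPM. T cells were the exception, with 292 CPM (127 UMIs) in control cells and 156 CPM (93 UMIs) in LPCAT3-AKO cells, a ratio of 0.536 (0.406 to 0.706), the only call of 5 in that gate, where 3.78% of 6354 genes were higher and 4.42% lower. After thinning, the log2 ratio in T cells was −0.48 (−1.04 to 0.091) in place of −0.90, so the call was lost. The NK markers in the T cell gate, 9 and 8 of 10 detected, summed to 1153 and 466 CPM, and their part in the Ly6a difference was not tested. T cells with Cd4 had 329 and 295 CPM, those with Cd8a or Cd8b1 162 and 108 CPM, and those with neither 330 and 136 CPM.

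Ly6e, the broadly expressed and interferon-inducible member, was highest in macrophages in both libraries. They had 2285 CPM in control cells and 2398 CPM in LPCAT3-AKO cells, a ratio of 1.05 (1.04 to 1.06), and epithelial cells 2261 and 1909 CPM, a ratio of 0.844 (0.815 to 0.875). Cells of both the monocyte and macrophage gates had 1857 and 2304 CPM, and monocytes the 1829 and 2259 CPM given above, so epithelial cells ranked below both in the LPCAT3-AKO library. The interval of macrophages overlaps that of epithelial cells in the control (2267 to 2304 and 2194 to 2329 CPM) and that of cells of both gates in the LPCAT3-AKO library (2378 to 2418 and 2226 to 2383 CPM). Vascular endothelial cells had 1332 and 1375 CPM, type 1 dendritic cells 936 and 907 CPM, NK cells 814 and 962 CPM, T cells 813 and 765 CPM, and fibroblasts 551 and 669 CPM. NK and T cells could not be ordered in the control. The lowest gate was that of type 2 dendritic cells, at 164 and 256 CPM, a ratio of 1.56 (1.35 to 1.81), the only one of the 5 genes called there, where 4.45% of 5213 genes were higher and 1.73% lower. Ly6e was thus higher in type 1 than in type 2 dendritic cells in both libraries. In fibroblasts the ratio was 1.29 (1.26 to 1.31) in the interstitial state and 1 (0.961 to 1.05) in the committed state.

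Ly6a, Ly6c1 and Ly6e were higher in fibroblasts with more interferon response genes detected. From the fibroblasts with 0 to 2 such genes in 2000 UMIs to those with 9 or more, Ly6a went from 1264 to 3368 CPM in control cells and from 1063 to 4133 CPM in LPCAT3-AKO cells. Ly6c1 went from 679 to 1765 CPM and from 517 to 2045 CPM, and Ly6e from 299 to 763 CPM and from 297 to 1047 CPM. In both libraries each step up in the bin came with a higher level of all 3 genes. Median depth moved with the bin, from 8601 to 10274 UMIs in control cells and from 8172 to 10218 in LPCAT3-AKO cells, and its part was not tested. Fibroblast states moved with the bin as well: committed cells were 131 of 354 control and 266 of 555 LPCAT3-AKO fibroblasts in the bin of 0 to 2 genes, and 115 of 1455 and 126 of 1240 in that of 9 or more. Within interstitial cells alone Ly6a went from 2061 to 3434 CPM in the control and from 2126 to 4203 CPM in the LPCAT3-AKO library. Ly6c1 in them went from 1252 to 1853 CPM and from 1306 to 2153 CPM, and Ly6e from 293 to 752 CPM and from 315 to 1019 CPM. Within committed cells Ly6a went from 497 to 2139 CPM in the control and from 488 to 2602 CPM in the LPCAT3-AKO library. Ly6c1 in them went from 121 to 695 CPM and from 117 to 827 CPM, and Ly6e from 323 to 788 CPM and from 290 to 967 CPM. As a fold, the rise of Ly6a and Ly6c1 was thus smaller in interstitial cells and larger in committed cells than over all fibroblasts.

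In macrophages the same split separated the genes. Ly6a went from 75.1 to 490 CPM (control) and from 77.1 to 571 CPM (LPCAT3-AKO), and Ly6e from 825 to 2716 CPM and from 1058 to 2959 CPM. Ly6c1 went from 25.7 to 27.3 CPM (control) and from 21.2 to 29.2 CPM (LPCAT3-AKO), with counting intervals that overlap. Ly6c2 had 7.44 CPM in control and 81.5 CPM in LPCAT3-AKO macrophages of the top bin. Here too depth rose with the bin, from 5000 to 7322 and from 5738 to 9457 UMIs. Macrophages with both Lyve1 and Folr2 were 94 of 172 control and 110 of 194 LPCAT3-AKO cells in the lowest bin, and 1650 of 1863 and 1019 of 1238 in the highest. Within them Ly6a went from 98.6 to 527 CPM and from 95.1 to 613 CPM, and Ly6e from 1376 to 2927 CPM and from 1604 to 3240 CPM. The macrophage interferon genes that were lower in the LPCAT3-AKO library included Rsad2, the antiviral protein viperin (785 and 310 CPM), and Ifit1, which binds foreign RNA (304 and 121 CPM), while Ly6a and Ly6e in the same cells had ratios of 1.08 and 1.05. In fibroblasts Isg15, a ubiquitin-like modifier, had 265 and 174 CPM and Ifit1 232 and 120 CPM.

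**Figure D5:**
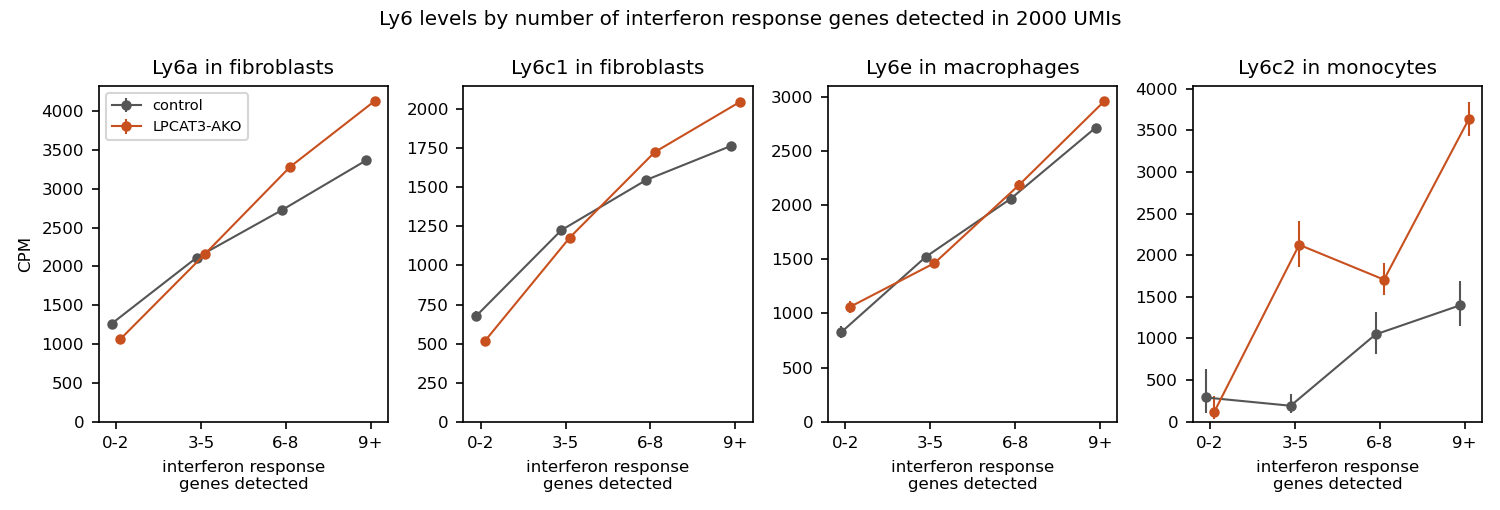
Level in CPM (vertical axis, from 0) of Ly6a and Ly6c1 in fibroblasts, Ly6e in macrophages and Ly6c2 in monocytes by the number of interferon response genes detected after thinning to 2000 UMIs (horizontal axis), 1 point per library and bin with its 95% counting interval. Ly6a in fibroblasts rises from 1264 to 3368 CPM in control cells and from 1063 to 4133 CPM in LPCAT3-AKO cells; in monocytes the lowest bin holds 4 and 5 cells.

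Ly6d was an epithelial gene in these libraries. It had 5004 UMIs and 54.0 CPM over all kept control cells and 12276 UMIs and 122 CPM over LPCAT3-AKO cells, a ratio of 2.25 (2.18 to 2.33). Cells with 5 or more of 11 epithelial markers such as Epcam and keratins held 96.7 and 97.2% of its UMIs. The epithelial gate had 97 and 208 cells, a ratio of shares of 2.27 (1.77 to 2.92), and inside it the level was 2086 and 1441 CPM, a ratio of 0.691 (0.664 to 0.718). Of the whole-library difference 43.0% came from the epithelial gate, as 76.7% from its larger share and −33.6% from its lower level. Another 55.1% came from cells that met more than 1 gate, with 28.1% from their share and 27.0% from their level (305 and 665 CPM). Summed over gates, shares gave 105% and levels −4.96%, the latter a sum of opposite parts.

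The value for Ly6d rested partly on cells that could be mixtures. Cells that met more than 1 gate held 17.5 and 38.4% of its UMIs. Without removal of doublets, droplets with more than 1 cell, the log2 ratio over the library was 0.47 in place of 1.16. B cells, 10 and 22, had 15 and 55 UMIs (739 and 1200 CPM). Cells with no epithelial marker had a Ly6d UMI in 1.15 and 2.24% of cases, at median depths of 7501 and 7899 UMIs, against 98.1 and 93.0% of cells with 5 or more markers.

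The wider family of genes with a Ly6 or uPAR domain was mostly silent. Of its 36 other members in the files 6 reached 20 CPM in a gate and 8 had no UMI in either library. Gpihbp1, which carries lipoprotein lipase across capillaries and is itself one of the endothelial markers, had 1612 and 1723 CPM in vascular endothelial cells, and Cd59a, an inhibitor of complement, 53.7 and 52.4 CPM. Plaur, the urokinase receptor, had 329 and 240 CPM in monocytes and 181 and 182 CPM in type 2 dendritic cells. Cd177, a neutrophil surface protein, had 51.9 and 25 CPM in monocytes, and Lynx1, a modulator of nicotinic receptors, 25.9 and 26.9 CPM in fibroblasts. Lypd3, found on squamous epithelia, had 9.44 and 22.2 CPM in epithelial cells. It was the 1 member measured there and was called higher, where 7.58% of genes were. In T cells and in dividing macrophages the 1 member measured was lower, where 4.42% and 4.59% of genes were. In macrophages with both Lyve1 and Folr2 the 1 member measured was lower too, where 56 of 6036 genes were. No member was called in the other gates compared. The neutrophil antigen gene Ly6g had 1 UMI in each library and Ly6i 90 and 95.

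Genes that build the GPI anchor were called in some gates but not in others. Of 11 measured in monocytes, 13 in macrophages, 11 in fibroblasts and 11 in vascular endothelial cells none was called, with median log2 ratios of 0.06, 0.11, −0.04 and 0.10. Of all genes, 6.46, 1.27, 1.34 and 2.28% were higher in these gates, and 3.28, 0.667, 0.86 and 1.52% lower. In T cells 2 of 12 were higher and 1 lower, against the 3.78% and 4.42% of all genes given above. In NK cells 2 of 12 were higher (median 0.21), where 3.04% of 6379 genes were higher and 3.18% lower. In dividing macrophages 2 of 13 were higher, where 10.5% of all genes were. In macrophages with neither Lyve1 nor Folr2 1 of 11 was higher and 1 lower, where 3.9% and 2.25% of all genes were. In type 1 dendritic cells 1 of 10 was higher, where 5.38% of 5185 genes were higher and 2.33% lower. A single gene was higher in type 2 dendritic cells (of 10), epithelial cells (of 13) and cells of both the monocyte and macrophage gates (of 11). Of all genes, 4.45, 7.58 and 6.04% were higher in these gates. In fibroblasts Dpm3, a subunit of dolichol-phosphate-mannose synthase, had 148 and 185 CPM, and Pigt, of the transamidase that attaches the anchor, 80.4 and 77.7 CPM. Of other GPI-anchored surface genes 8 were measured in monocytes, of which Cd48, a ligand on blood cells, was higher (64.9 and 168 CPM) and Bst1, an ectoenzyme, lower (108 and 58.9 CPM). The shares of all genes called in monocytes were the 6.46% higher and 3.28% lower above. In fibroblasts none of 10 and in macrophages none of 8 was called, where 1.34% and 1.27% of all genes were higher. Art3, an ADP-ribosyltransferase family gene, was the only one of 12 called in vascular endothelial cells, at 61.8 and 95.0 CPM, where 2.28% of all genes were higher.

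Genes with the most similar pattern were sought by Pearson's r of log2(CPM + 1) over 20 points, the gates with 50 or more cells in a library, among 10336 genes; the points share libraries and gates, so r is a description. Closest to Ly6c1 were Plpp3, a lipid phosphatase (r = 0.977), Sparc, a matrix protein (0.968), Timp3, a metalloproteinase inhibitor (0.966), Ltbp4 and Ppp2r2b (0.953 each). Among the nearest to Ly6c2 were Treml2 (0.925), Nub1 (0.866), Rab8a (0.863) and Gtpbp1 (0.853). Ly6a was nearest to Thra, a thyroid hormone receptor (0.927), Neo1, a netrin receptor (0.921), Ryk (0.896), Rxylt1 (0.887) and Nfia (0.883), and Ly6d to Aqp5, a water channel of glands (0.972), Cxcl15 (0.970), Fam25c (0.970), Fxyd3 (0.968) and Tfap2b (0.967). No gene followed Ly6e as closely, Zmiz1 being first at 0.780, before Fbxw5 (0.765), Fbxo22 (0.760), Prune2 (0.749) and Gdpd1 (0.727). Among the 5 genes themselves r was 0.70 between Ly6c1 and Ly6a and −0.43 between Ly6c1 and Ly6c2.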

How the data were processed

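The authors deposited 10x matrices of raw UMI counts per gene and barcode, 1 per library, made with Cell Ranger 6.1.2 on mm10, per the submitters' processing notes, which also list Seurat 4.10. Whether the deposited matrices were filtered beyond cell calling is not given in the sources used here. Barcodes with 500 or more genes and at most 10% mitochondrial UMIs were taken, and the cells scored highest by Scrublet (in scanpy 1.11.5) were removed at 0.8% per 1000 cells, 1235 and 1088 in all. Gates needed 7 of 12 macrophage, 10 of 12 fibroblast, 7 of 12 vascular endothelial, 5 of 11 epithelial, 5 of 8 monocyte, 5 of the type 1 or type 2 dendritic and 4 of the T, NK or B cell markers. Cells in more than 1 gate were kept apart. A level is the gate's summed UMIs of the gene per 1000000 UMIs (CPM), a log2 ratio uses CPM + 1, and ratio intervals are exact binomial ones at 95%, with a floor of 3 counts where a group had none. The control library held 111669076 UMIs before filters and the other 119355147.

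The 5 genes and all lists were chosen with earlier results of these data known, and the gate limits after the matrices had been seen. Named genes follow a rule: the 5 genes in gates of 20 or more cells per library, family members at 20 CPM, up to 4 genes of a list by level among those called, and the 5 most alike to each; 1 gene the rule names is not reported here. Genes named beyond it were chosen after their values were seen. Alternatives were another cell filter, no doublet removal, stricter gates, a mean over cells, thinning to 2000 UMIs, no shared barcodes, other monocyte gates and another pseudocount. No sequence is shown.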

Additional observations from a re-analysis of the deposited data

How the results depend on the processing

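The main results were recomputed under 50 alternatives and other gene and gate pairs under 78. None turned a called ratio to the other direction, but some calls were lost, as given below. Of the 128 values, 101 stayed inside the counting interval of the value reported. On the log2 scale, the Ly6c2 ratio within monocytes (1.67) became 2.12 without the 5% of cells with most of it. With Plac8 and Ccr2 alone demanded of cells in no gate other than macrophage, it became 3.02. Most of those cells were in the macrophage gate. The log2 ratio of monocyte shares (1.46) became 0.21 with that demand. Over all kept cells Ly6c2 (2.32) became 2.12 as a mean over cells and 2.06 after thinning, and Ly6d (1.16) became 1.36 with the stricter cell filter, 0.47 without doublet removal, 0.87 as a mean over cells and 0.90 after thinning. Of ratios that were not called, Ly6c1 in fibroblasts (0.04) became 0.027 as a mean over cells, 0.023 after thinning and −0.0037 without the 5% of cells with most of it, Ly6a in fibroblasts (0.14) became 0.12 after thinning, and Ly6e in macrophages (0.07) became 0.045 with 1 marker more in each gate, 0.035 as a mean over cells and 0.014 after thinning. Some moved more: with 1 marker more in each gate Ly6c2 became 0.58 in T cells (from 0.25) and 0.52 in NK cells (from 0.34), and Ly6e in monocytes went from 0.30 to 0.47 after thinning. The call of Ly6a in T cells (−0.90) was lost after thinning (−0.48). That of Ly6d over all kept cells was lost without doublet removal, where its ratio was under 1.5. Ly6e in type 2 dendritic cells (0.64) also had a ratio under 1.5 as a mean over cells (0.50). The causes were not tested. Joining the monocyte gate with cells that also met the macrophage gate and weighting marker strata alike were chosen after seeing the data; they gave 1.83 and 1.82 for Ly6c2. No paired analysis was possible because each group has 1 library. The 12 of 55 gene and gate pairs past a ratio of 1.5 at 20 CPM were also 12 with 10 CPM added. Depth limits the gates with few cells: 3 counts are 13 CPM in control monocytes and 0.0578 CPM in control fibroblasts.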
